A study of Mus musculus with 8 samples.

Results

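Cells of deep cervical lymph nodes were compared between mice with and without B cells, under a control antibody. In both groups C57BL/6 mice carried GL261 cells, a mouse glioma line, injected intracranially, and both received isotype IgG, the control for anti-CTLA-4. One group was also given anti-CD20, an antibody against the B cell surface protein encoded by Ms4a1, and its library is called depleted. The other kept its B cells and its library is called intact. Nodes were taken on day 20, live immune cells were sorted, and a 5' V2 droplet library of each group was counted as unique molecular identifiers (UMIs). There was 1 library per group, for which the sources used here do not give the number of mice. The cells described are the barcodes with at least 500 detected genes, at most 10% mitochondrial UMIs and no UMI of Cd79a, the signalling chain of the B cell receptor. There were 8829 of them in the depleted and 4204 in the intact library, 13033 of the 49399 barcodes of 5 expression libraries. The other 3 libraries are given as reference values. They came from a saline control (DPBS injected in place of tumour cells, B cells present) and from glioma-bearing mice given anti-CTLA-4, with B cells or depleted of them.

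A lymph node holds B cells in follicles and T cells in the zone around them. B cells present antigen on MHC class II molecules to CD4 T cells, and this contact sustains follicular helper T cells, which carry the chemokine receptor CXCR5 and the inhibitory receptor PD-1 and support germinal centres. In droplet sequencing, RNA released by broken cells also enters the droplets of other cells, so a node rich in B cells can leave B cell transcripts in the counts of its T cells.

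Few cells with B cell receptor transcripts were left after anti-CD20. Cells without a Cd79a UMI were 98.6% of the cells kept in the depleted and 43.9% in the intact library. Total UMIs ranged from 54715065 to 63497466 over the 5 libraries, and the median cell without Cd79a had 5984 UMIs in the depleted and 5782.5 in the intact library. The intact isotype library stood apart: the median mitochondrial share of its cells was 0.969%, against 1.69% to 2.07% in the others. Doublets were marked by simulation as a number set by the barcodes of each library, before the Cd79a filter. It was 641 barcodes in the depleted and 735 in the intact library. Of cells without Cd79a, 628 depleted (7.11%) and 91 intact (2.16%) were marked, and these were kept. Most marked intact barcodes thus held Cd79a UMIs. Shares of marked cells, here and by class, therefore do not compare amounts of doublets between libraries. The pair shared 121 barcode sequences. Clusters named from marker genes gave 3537 depleted and 1537 intact conventional CD4 T cells, 716 and 391 regulatory T (Treg-like) cells, and 3654 and 1793 CD8 T-like cells. All T cells together numbered 8527 and 3960. The T cell markers summed to 3830.3 CPM (UMIs per 1000000 UMIs of the class and library) in intact and 3805 CPM in depleted conventional CD4 T cells, and monocyte or macrophage markers to 2.65 and 3.47 CPM. With 1 library per group no test between groups is possible, and all intervals below are 95% intervals that cover counting error only.

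Transcripts of the missing B cells were lower in T cells of the depleted library. Ms4a1, the anti-CD20 target, was at 1.31 CPM in intact (33 UMIs) and 0.0526 CPM in depleted T cells (3 UMIs), a ratio of 0.0401 (0.00787 to 0.128). The B cell transcription factor Ebf1 was at 2.70 CPM in intact and 0.386 CPM in depleted T cells. In the reference libraries it was at 2.38 CPM (saline), 2.78 CPM (intact anti-CTLA-4) and 0.536 CPM (depleted anti-CTLA-4), so libraries with and without B cells did not overlap. Pax5, which keeps B cell identity, was at 0.835 and 0.0877 CPM, and Iglc2, a light chain constant gene, at 2.34 and 0.0877 CPM. As a share of the level in 4574 B cells of the intact library, Ms4a1 stood at 0.239% in intact and 0.00957% in depleted T cells. Over 13 B cell genes the median of this share was 0.256% (range 0.115% to 1.07%) in intact and 0.0624% (0.00957% to 0.883%) in depleted T cells. Cells with UMIs of at least 2 B cell genes other than Cd79a were 1.12% of the intact and 0.0906% of the depleted cells.

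**Figure D1:**
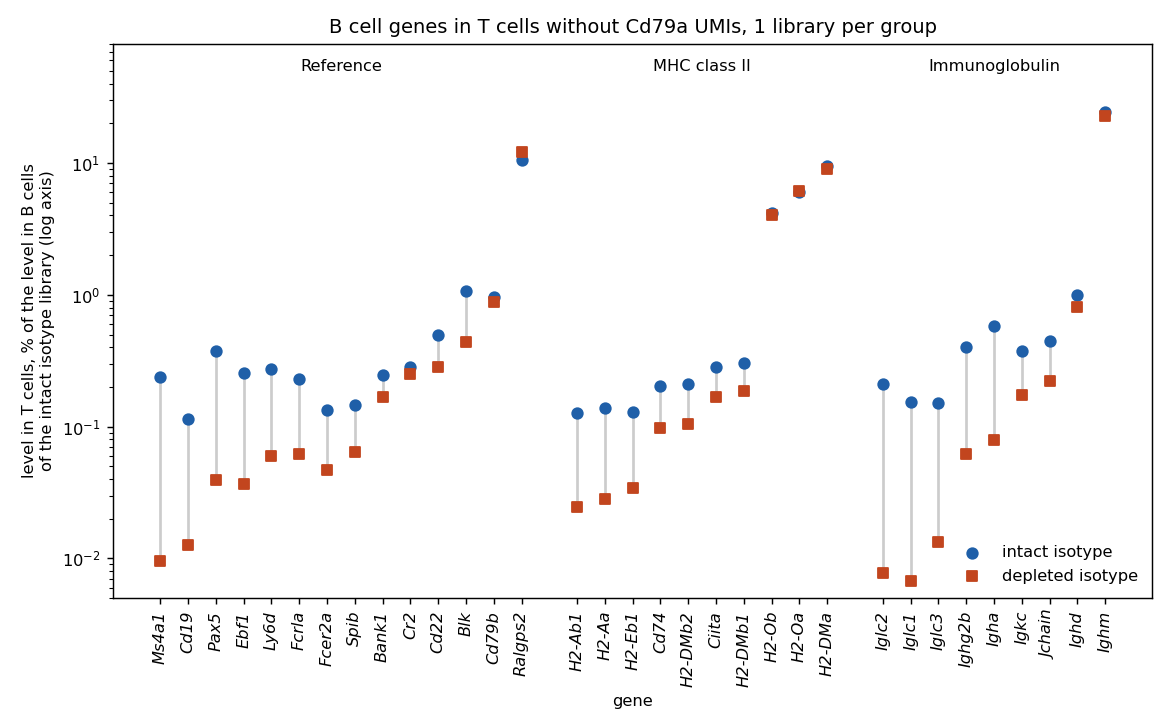
Level of B cell, MHC class II and immunoglobulin genes (x axis) in T cells without Cd79a UMIs, as a percent of the level in B cells of the intact isotype library (y axis, log scale); circles are the intact and squares the depleted isotype library, 1 library each. Ms4a1 lies at 0.239% and 0.00957%, Ighm at 24.2% and 22.6%.

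The MHC class II genes fell into a lower and a level set in T cells. H2-Aa, H2-Ab1 and H2-Eb1 encode chains that hold the peptide, and Cd74 the invariant chain that escorts them. H2-Aa was at 9.74 CPM in intact and 1.964 CPM in depleted T cells, a ratio of 0.202 (0.160 to 0.253), and was found in 5.53% and 0.915% of cells. It was at 13.3, 15.1 and 1.35 CPM in saline, intact anti-CTLA-4 and depleted anti-CTLA-4 T cells, the order used for reference libraries from here on. H2-Ab1 was at 6.00 and 1.17 CPM, H2-Eb1 at 6.00 and 1.60 CPM and Cd74 at 49.7 and 23.9 CPM. For all 4 genes both depleted libraries lay below the 3 libraries with B cells. In intact T cells the 4 stood at 0.126% to 0.204% of their B cell level, inside the range of the 13 B cell genes. Of the peptide exchange genes, H2-DMa, H2-Oa and H2-Ob were level, at 51.5 and 48.4 CPM, 25.6 and 26.5 CPM, and 25.3 and 24.5 CPM. These level genes stood at 4.15% to 9.55% of the B cell level in intact T cells. The exchange gene H2-DMb2 was lower, at 2.29 CPM in intact and 1.19 CPM in depleted conventional CD4 T cells. Its reference values there were 2.52, 4.29 and 1.41 CPM, so both depleted libraries were lowest.

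The promoters of H2-Aa and H2-Eb1 are shown because these chain genes were lower together. Each window runs from 250 bases before to 50 bases after the gene start (RefSeq, GRCm38.p6), and capitals mark CCAAT, or ATTGG where it reads on the other strand, the only motif searched. The H2-Aa window (chr17:34287774-34288073, minus strand) holds 1 match, 48 bases before the start. The H2-Eb1 window (chr17:34305617-34305916, plus strand) holds 2 matches, 59 and 35 bases before the start. Of 32851 promoter windows of this length 37.4% hold the motif, so a match is a description only.
H2-Aa: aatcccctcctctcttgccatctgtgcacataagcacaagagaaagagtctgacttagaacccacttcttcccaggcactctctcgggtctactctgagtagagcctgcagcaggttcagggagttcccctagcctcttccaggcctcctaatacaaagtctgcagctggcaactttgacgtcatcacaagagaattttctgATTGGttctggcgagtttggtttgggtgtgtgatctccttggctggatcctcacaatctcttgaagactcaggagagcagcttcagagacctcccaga
H2-Eb1: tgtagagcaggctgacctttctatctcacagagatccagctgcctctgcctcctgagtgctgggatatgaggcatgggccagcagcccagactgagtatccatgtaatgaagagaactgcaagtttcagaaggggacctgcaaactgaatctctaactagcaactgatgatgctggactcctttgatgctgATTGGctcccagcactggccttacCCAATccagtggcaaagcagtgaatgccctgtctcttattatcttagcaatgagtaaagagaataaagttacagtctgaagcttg

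Other genes best known from B cells were near level in T cells with and without B cells in the node. Ighm, the IgM heavy chain, was at 200.3 CPM in intact and 188 CPM in depleted T cells, a ratio of 0.937 (0.906 to 0.969), and was found in 61.9% and 59.6% of cells. It was at 185, 191 and 188 CPM in the reference libraries, so the groups overlapped. Ralgps2, a guanine exchange factor, was at 40.6 and 46.1 CPM, the CD100 receptor gene Cd72 at 31.8 and 27.8 CPM, and the tetraspanin gene Cd81 at 21.8 and 21.6 CPM. Cd79b, partner of Cd79a, was at 11.5 and 10.5 CPM. Ighm, Ralgps2, Cd72 and Cd81 stood at 8.73% to 24.2% of the B cell level in intact T cells, above the highest of the 13 B cell genes. Ralgps2 was first one of 14 such genes and was taken out after its values were seen, so its place above the 13 follows from that choice. Igkc, the kappa constant gene, was at 7.59 and 3.51 CPM, but 128 of its 200 UMIs in depleted T cells came from 1 cell.

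The estimated amount of free B cell RNA depended on the genes that measured it. With 14 B cell genes it was 0.920% (0.877 to 0.965) of the RNA in intact and 0.833% (0.806 to 0.861) in depleted T cells. Ralgps2, which was no lower in depleted T cells, gave 1022 of the 1717 UMIs of these genes in intact T cells, so the share from 14 genes overstates free B cell RNA. Without Ralgps2, a choice made after seeing the data, the estimates were 0.393% (0.364 to 0.423) and 0.224% (0.209 to 0.239). Cd79b, also near level in T cells, stayed among the 13 genes left, so their share can overstate free B cell RNA too. Taken singly, these 13 genes had a median share of 0.0624% and a highest share of 0.883% in depleted T cells. Igkc alone gave 0.377% (0.326 to 0.435) and 0.174% (0.151 to 0.2001), the latter mostly from the 1 cell named above. Without the highest Igkc cell of each library, also chosen after seeing the data, it gave 0.308% (0.262 to 0.360) and 0.0627% (0.0491 to 0.0790). Before genes were counted, the share from 14 genes times the B cell level was subtracted in each class and library. This prediction exceeded the whole measured level of H2-Aa and Cd74 in conventional CD4 and CD8 T-like cells, so these genes have no ratio after subtraction. With the share from 13 genes, 96 genes were lower in conventional CD4 T cells, against 107 with 14.

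In conventional CD4 T cells few genes were past 1.5-fold, and the lower ones included markers of helper and activated cells. Of 9607 genes with at least 100 UMIs in the pair, 136 were at least 1.5-fold higher in depleted cells (1.42%) and 107 lower (1.11%) after subtraction. The median log2 ratio of all genes was 0.02. Igkc, H2-Aa and Cd74, named after their values were seen, were lower before subtraction and had no ratio after it. Of the Igkc UMIs, 89.5% in depleted and 38.9% in intact cells came from 1 cell, and with those cells kept the ratio turned to 1.93 against saline and 1.42 against intact anti-CTLA-4. Without the highest cell of each library Igkc was at 6.63 and 0.743 CPM, with 3.44, 4.69 and 0.909 CPM in the reference libraries, so the depleted libraries were lowest. The ratio of H2-Aa turned to 1.18 with marker UMI classes. Intact isotype over saline cells, both from nodes with B cells, gave 0.97% higher and 1.08% lower of 8760 genes. Counts of this size thus also arose between libraries that both held B cells.

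Several inhibitory and costimulatory receptors were lower. Pdcd1, which encodes PD-1, was at 20.6 CPM (17.6 to 24.0) in intact and 9.95 CPM (8.63 to 11.4) in depleted conventional CD4 T cells, a ratio of 0.483 (0.392 to 0.595). Its reference values were 19.7, 25.5 and 12.7 CPM, so both depleted libraries lay below the 3 with B cells. Tigit, an inhibitory receptor for nectin family ligands, was at 25.9 CPM (22.6 to 29.6) and 9.81 CPM (8.49 to 11.3), a ratio of 0.378 (0.310 to 0.461). Its reference values of 19.0, 26.9 and 12.4 CPM again left no overlap. Tnfrsf9, the costimulatory receptor 4-1BB, was at 18.0 and 10.5 CPM, a ratio of 0.584 (0.472 to 0.726), with 16.3, 24.1 and 13.5 CPM in the reference libraries. When cells were classed by marker UMIs in place of clusters, its ratio was 0.796, within 1.5-fold. Lag3, an inhibitory receptor that binds MHC class II, was at 23.6 and 8.62 CPM, a ratio of 0.365 (0.296 to 0.450), with 12.9, 15.8 and 11.01 CPM in the reference libraries. Here the intact isotype library was the highest of the 5, and the anti-CTLA-4 pair gave a ratio of 0.696, within 1.5-fold. In mm10, Pdcd1 spans positions 94038305 to 94052553 of chromosome 1 and Tigit 43626137 to 43665125 of chromosome 16.

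Of 12 genes that set the place of T cells in the node 3 were lower (Rgs16, Cxcr5 and Rgs1, Cxcr5 only after subtraction) and none higher, with a median log2 ratio of -0.12. Rgs16, which dampens chemokine receptor signalling, was at 25.0 CPM (21.7 to 28.6) in intact and 6.49 CPM (5.42 to 7.70) in depleted conventional CD4 T cells, a ratio of 0.260 (0.207 to 0.325). With reference values of 14.3, 20.3 and 10.9 CPM, both depleted libraries were lowest. Cxcr5, the follicle homing receptor, was at 9.40 CPM (7.43 to 11.7) and 6.29 CPM (5.24 to 7.48), a ratio of 0.669 (0.501 to 0.898) before and 0.646 after subtraction. Its reference values were 10.2, 12.0 and 7.43 CPM, so the depleted libraries were lowest, although the intervals of the isotype pair overlapped. Without the cell with most Cxcr5 UMIs in each library, a setting chosen after seeing the data, the ratio was 0.722, within 1.5-fold. Penk, which encodes the opioid precursor proenkephalin, was at 64.7 and 13.9 CPM, with 25.1, 36.2 and 10.2 CPM in the reference libraries. Without its highest cell the depleted level of Penk was 1.09 times that of saline.

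**Figure D2:**
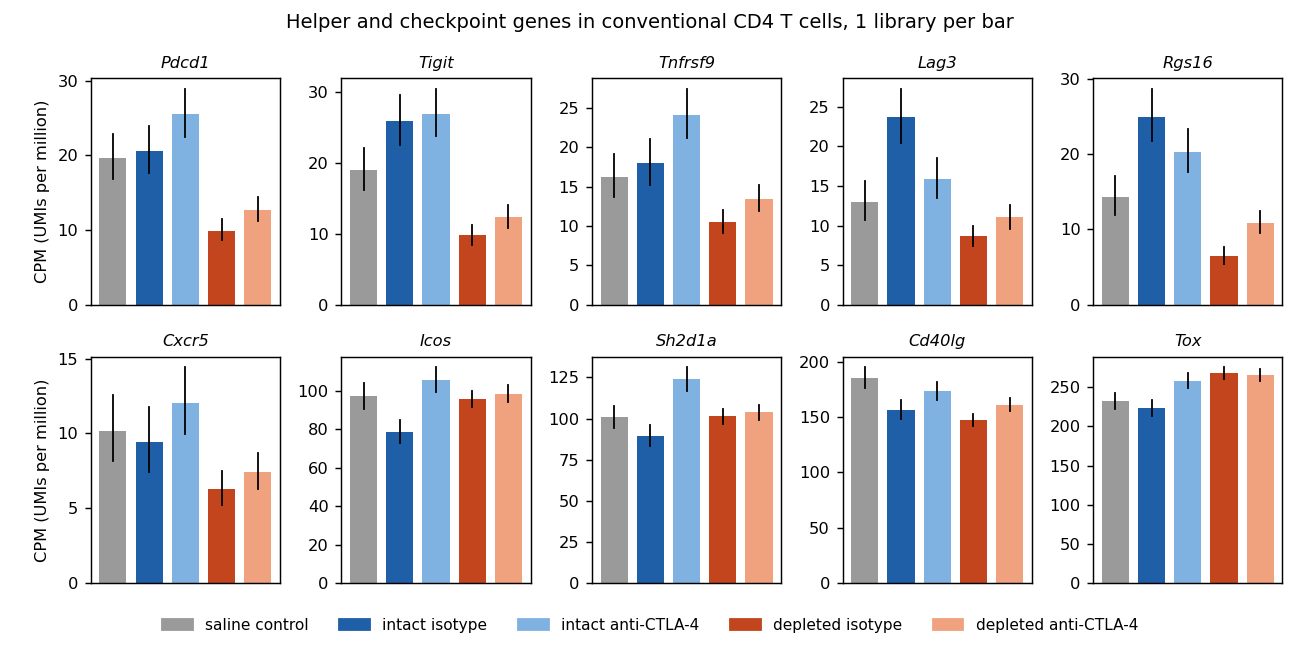
CPM of 10 helper and checkpoint genes in conventional CD4 T cells of 5 libraries (bars, 1 library each; lines, 95% Poisson intervals). Pdcd1, Tigit, Tnfrsf9, Lag3, Rgs16 and Cxcr5 are lowest in the 2 depleted libraries, while Icos, Sh2d1a, Cd40lg and Tox lie within 1.5-fold in the isotype pair.

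Most of the helper machinery was within 1.5-fold. Of 10 follicular helper genes with 100 UMIs 3 were lower (Pdcd1, Sostdc1 and, only after subtraction, Cxcr5) and none higher. The median log2 ratio over all measured members was -0.41. Sostdc1, a secreted BMP antagonist, had 112 UMIs in 8 intact cells and 27 in 6 depleted cells. Bcl6, the master regulator of helper cells in follicles, was at 52.6 and 46.4 CPM, its partner Maf at 20.5 and 17.4 CPM, and Izumo1r, folate receptor 4, at 156 and 144 CPM. Icos, a costimulatory receptor, was at 78.7 and 95.7 CPM, a ratio of 1.22 (1.11 to 1.33). Of 12 genes that carry help to B cells none was past 1.5-fold. Cd40lg, the CD40 ligand, was at 157 and 147 CPM, Sh2d1a, the adaptor SAP, at 89.6 and 101 CPM and Cd28 at 232 and 257 CPM. Of 13 activation and checkpoint genes 4 were lower, namely Tigit, Pdcd1, Lag3 and Tnfrsf9, while Ctla4 was at 78.3 and 83.2 CPM. In summed counts, fewer cells with a transcript and less of it per cell cannot be told apart, so cells were also counted.

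Cells with several UMIs of these receptors were a smaller share after depletion. At least 3 Pdcd1 UMIs were found in 1.56% (24 of 1537; 1.00 to 2.31) of intact and 0.537% (19 of 3537; 0.324 to 0.838) of depleted conventional CD4 T cells, and in 1.27%, 1.41% and 0.793% in the reference libraries. The share with any Pdcd1 UMI was closer, at 3.90% and 3.19%, and a positive cell held 2.85 and 1.78 UMIs on average. At least 3 Tigit UMIs were found in 1.37% and 0.481%, and at least 3 Rgs16 UMIs in 1.496% and 0.368%. Cells with UMIs of at least 2 of 8 follicular helper genes, each cell thinned to 3000 UMIs, were 3.20% (2.35 to 4.24) of intact and 2.21% (1.73 to 2.77) of depleted cells, whose intervals overlapped. The reference libraries gave 3.97%, 4.16% and 2.80%, so the depleted libraries were the lowest. Thinning left out 98 intact and 227 depleted cells with fewer UMIs. Unthinned, the shares were 5.99% and 5.06% at median depths of 5095 and 5345 UMIs. In CD8 T-like cells, which should lack the programme, they were 2.34% and 1.97% at 6570 and 6723 UMIs, so lower in the depleted library as well. Thinned, the shares were 0.400% and 0.309% in CD8 T-like cells. In Treg-like cells the thinned shares were 13.1% and 14.9%, higher in the depleted library. The intervals of the thinned shares overlapped in both classes.

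**Figure D3:**
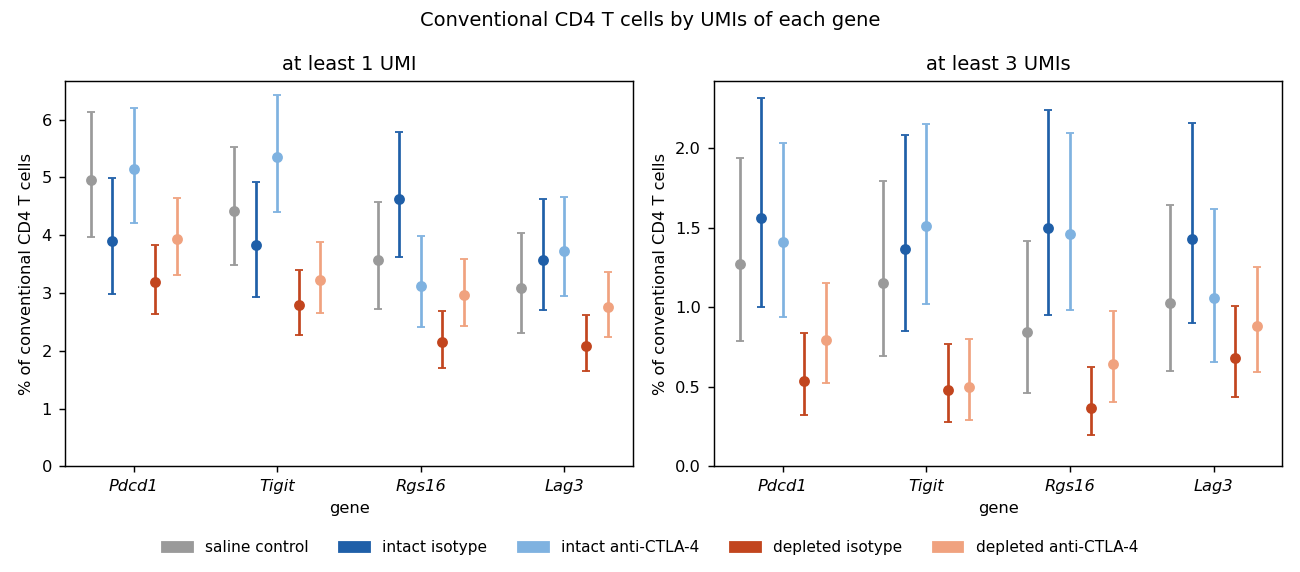
Percent of conventional CD4 T cells with at least 1 (left) or at least 3 UMIs (right) of Pdcd1, Tigit, Rgs16 and Lag3 in 5 libraries (points, 1 library each; lines, exact 95% binomial intervals). At 3 UMIs of Pdcd1 the intact isotype library is at 1.56% and the depleted one at 0.537%.

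Within a cluster of activated conventional CD4 T cells, led by Il2, Penk and Tnfsf11 (145 intact and 333 depleted cells), Pdcd1, Tigit, Rgs16 and Cxcr5 were lower. The cluster was called activated by a rule on its Pdcd1 level over all libraries, so Pdcd1 within it is a description only. The share of this cluster is not used, since Penk itself differed. Pdcd1 was at 149 and 63.0 CPM, with 154, 145 and 74.6 CPM in the reference libraries, Tigit at 184 and 55.0 CPM, Rgs16 at 171 and 38.9 CPM and Cxcr5 at 41.2 and 23.7 CPM. For each of the 4 both depleted libraries lay below the 3 with B cells. Markers of other cells differed here as well. Memory or effector CD8 markers summed to 2152 and 822 CPM, with 2369, 1535 and 1038 CPM in the reference libraries, and effector CD4 markers to 2495 and 1021 CPM. Without cells that held a Cd8a or Cd8b1 UMI, Ccl5 turned to a ratio of 2.15, whereas Pdcd1, Tigit, Rgs16 and Cxcr5 had ratios of 0.400, 0.323, 0.237 and 0.589, all still lower. In this cluster 205 of 5222 genes were higher (3.93%) and 196 lower (3.75%). Satb1, a chromatin organiser of naive T cells, was at 145 and 299.9 CPM, above all 3 libraries with B cells in the depleted isotype library, whereas depleted anti-CTLA-4 was at 201 CPM. Nrgn, neurogranin, was at 141 and 22.6 CPM, with 50.2, 110.1 and 18.7 CPM in the reference libraries.

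Part of the lower genes were also lower in the anti-CTLA-4 pair, which shares no library with the isotype pair. Of 94 lower genes tested in both pairs of conventional CD4 T cells, 25 were lower in both, 26.6% of the isotype list and 31.2% of the 80 in the anti-CTLA-4 list. Of 127 higher genes 14 were higher in both, 11.02% and 15.9% of the lists. In the anti-CTLA-4 pair 0.906% of genes were lower and 1.11% higher. The shared lower genes included Pdcd1, Tigit, Tnfrsf9, Rgs16, Cxcr5, Penk and the cell cycle inhibitor gene Cdkn1a. Fewer genes were shared in the other main classes. In Treg-like cells 4 of 86 lower genes (4.65%) and 9 of 148 higher genes (6.08%) were past the fold in both pairs. In CD8 T-like cells these were 6 of 59 (10.2%) and 8 of 137 (5.84%). In a comparison chosen after seeing the data, levels in conventional CD4 T cells were compared without subtraction of free B cell RNA. Both depleted libraries lay at least 1.5-fold below all 3 libraries with B cells for 26 of 10905 genes (0.238%). They lay above all 3 by this fold for 6 (0.055%). Pdcd1 and Tigit were among the 26, with Ier5l (10.2 and 5.40 CPM) and C2cd4b (11.5 and 4.90 CPM). The 26 also held the B cell genes Bank1, Ebf1 and Ly6d and the light chain segments Iglv1 and Igkv5-43. Of class II genes they held Cd74, H2-Aa, H2-Ab1, H2-Eb1 and H2-DMb2. The part of free B cell RNA in the 26 was not tested. The 6 higher were Ksr2, a scaffold of the MAP kinase cascade (4.46 and 7.58 CPM), and 5 unnamed gene models.

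Other CD4 programmes differed in part through the intact isotype library. Of 12 heat shock genes 3 were lower and all 12 had ratios under 1, with a median log2 ratio of -0.35, against -0.10 in the anti-CTLA-4 pair. Hspa1a, an inducible HSP70 chaperone, was at 1014 and 555 CPM, with 864, 737 and 798 CPM in the reference libraries, so the pair held both the highest and the lowest value, and the ratio of the anti-CTLA-4 pair was 1.08. Of 11 common gamma chain receptor and STAT feedback genes 4 were lower (Socs3, Socs1, Cish and Il2ra), though Il2ra had a ratio of 1.16 once marked doublets were left out. Socs3, which restrains STAT signalling, was at 173 and 94.0 CPM, with 92.2, 120.4 and 104 CPM in the reference libraries, and the intact isotype library alone was high. Klf2, which keeps T cells circulating, was at 889 and 537 CPM, with 847, 773 and 682 CPM in the reference libraries, so the depleted libraries were lowest. Its fellow naive-state genes Ccr7, Tcf7 and Lef1 had ratios of 0.954, 1.03 and 1.10. None of 10 MHC class I, 17 type I interferon, 11 cell cycle, 14 glycolysis and 18 oxidative phosphorylation genes was past 1.5-fold. The mitochondrial transcript mt-Co1 was at 2201 and 4709 CPM, with 3810.2, 4590.1 and 4638 CPM in the reference libraries. The part of this RNA quality difference in the other results was not tested.

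**Figure D4:**
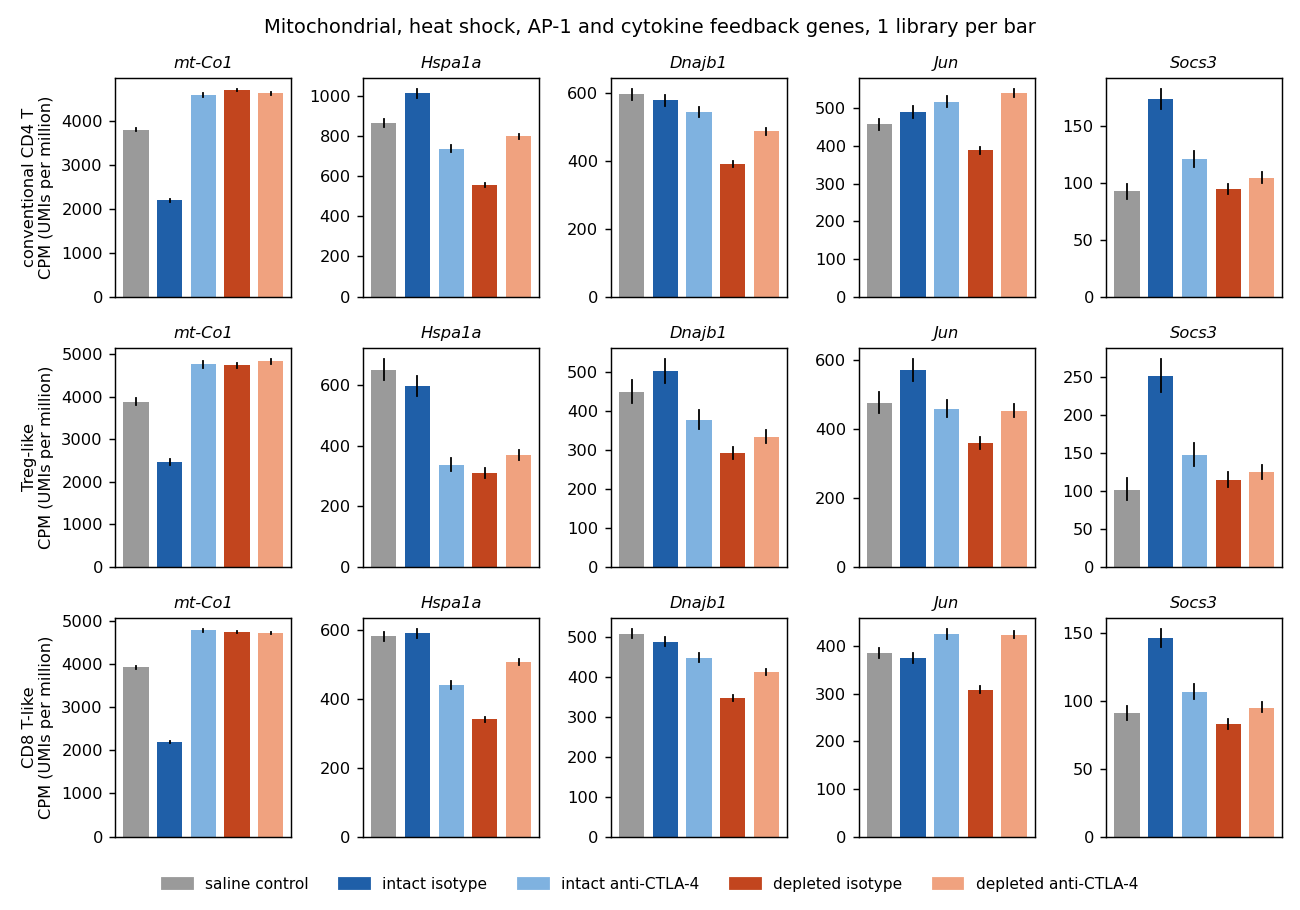
CPM of mt-Co1, Hspa1a, Dnajb1, Jun and Socs3 in 3 classes (conventional CD4 T, CD8 T-like, Treg-like) of 5 libraries (bars, 1 library each; lines, 95% Poisson intervals). In all 3 classes the intact isotype library has the lowest mt-Co1 and the highest Socs3.

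The higher genes ranked first in conventional CD4 T cells were Mss51, Tarbp1, Fbxw7, Immp2l, Tbc1d5 and Cpt1a. Mss51 was at 1.45 and 4.51 CPM, a ratio of 3.11 (1.70 to 6.25). Fbxw7, a ubiquitin ligase subunit that limits Notch and Myc, was at 13.7 and 23.8 CPM, with 15.2, 17.1 and 24.8 CPM in the reference libraries, so both depleted libraries were highest. Cpt1a, the entry enzyme of mitochondrial fatty acid oxidation, was at 12.5 and 21.4 CPM, with 14.2, 20.0 and 19.8 CPM in the reference libraries, which overlapped. For all 6 the intact isotype library was the lowest of the 5. The lower genes ranked first were Penk, Rgs16, Tigit, Gzmk, Neb and Hspa1a. Gzmk, a granzyme, and Ccl5, a chemokine of cytotoxic cells, were at 8.80 and 3.02 CPM and 170.3 and 36.3 CPM. Their ratios were 0.343 and 0.214 in all cells of the class, and 1.85 and 2.62 once cells with a Cd8a or Cd8b1 UMI were left out, a setting chosen after seeing the data. Memory or effector CD8 markers summed to 299.9 CPM in intact and 137 CPM in depleted cells of the class.

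Treg-like cells, the suppressive CD4 cells that depend on the transcription factor Foxp3, had most of their defining genes within 1.5-fold. Foxp3 was at 373 and 294 CPM, a ratio of 0.790 (0.723 to 0.864), the inhibitory receptor Ctla4 at 965 and 814 CPM, Ikzf2, the transcription factor Helios, at 745 and 749 CPM and Il2ra, the high-affinity IL-2 receptor chain, at 246 and 291 CPM. Of 6991 genes 151 were higher (2.16%) and 87 lower (1.24%). Of 13 Treg programme genes 1 was lower, Tigit, at 169 and 91.1 CPM, a ratio of 0.539 (0.467 to 0.623). Its reference values were 141, 143 and 127 CPM, with depleted anti-CTLA-4 nearer the libraries with B cells than the depleted isotype library. Pdcd1 was at 47.1 and 49.7 CPM here and Cxcr5 at 33.7 and 31.1 CPM, both within 1.5-fold, and whether this differs from conventional CD4 T cells was not tested. Of 14 naive-state genes 12 had ratios above 1, with a median log2 ratio of 0.32 against 0.00 for all genes, and 2 were higher and 1 lower. Igfbp4, an insulin-like growth factor binding protein, was at 67.3 and 109.7 CPM, with 75.3, 64.8 and 114 CPM in the reference libraries, so both depleted libraries were highest. Dapl1 was at 12.5 and 30.4 CPM, but at 17.9 CPM in depleted anti-CTLA-4 cells. Its direction turned without marked doublets (a ratio of 0.805) and with marker UMI classes (0.656), while the ratio of Igfbp4 was 1.04 and 1.24 there, within 1.5-fold. The CD8 chain gene Cd8b1, foreign to this class, was at 30.3 and 103 CPM, and 2.56% and 7.54% of cells had at least 2 of its UMIs. Doublets were marked in 3.84% and 13.97% of Treg-like cells, and the ratio of Tigit without them was 0.570. The part of these cells in the median of the naive-state list was not tested. The 1 lower gene was Klf2, at 796 and 492 CPM.

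A minority of stress and feedback genes were lower in Treg-like cells. Of 12 heat shock genes 4 were lower, among them Hspa1b at 698 and 331 CPM, Hspa1a at 597 and 308 CPM and Dnajb1 at 502 and 290.4 CPM. In the anti-CTLA-4 pair the direction turned for Hspa1b and Hspa1a, with ratios of 1.06 and 1.09. Of 14 AP-1 and NF-kB feedback genes 3 were lower, namely Socs3, Jun and Zfp36. Socs3 was at 252 and 114 CPM, with 101, 147 and 124 CPM in the reference libraries, so the intact isotype library alone was high and the ratio against saline was 1.13. Jun was at 570.4 and 359 CPM, with 475, 459 and 454 CPM, and the RNA decay factor gene Zfp36 at 601 and 387 CPM, with 421, 606 and 419 CPM. For both the depleted libraries were lowest, with depleted anti-CTLA-4 close to the lowest library with B cells. S100a6, a calcium-binding protein of activated cells, was at 257 and 107 CPM, with 112, 121 and 124 CPM in the reference libraries, so the intact isotype library alone was high. Treg-like cells were 20.3% (18.5 to 22.1) of intact and 16.8% (15.7 to 18.0) of depleted CD4 T cells, a ratio of 0.830 (0.743 to 0.927). With classes drawn from marker UMIs the ratio was 1.02.

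In CD8 T-like cells some interferon-induced and cytotoxic genes were lower. Of 9959 genes 147 were higher (1.48%) and 64 lower (0.643%). Cd83, H2-Aa and Cd74, named after their values were seen, were lower before subtraction only, Cd74 at 33.3 and 7.51 CPM. Of 17 type I interferon genes 4 were lower and 15 had ratios under 1, with a median log2 ratio of -0.29 against 0.04 for all genes, and of -0.31 in the anti-CTLA-4 pair. Isg15, a ubiquitin-like modifier, was at 55.0 and 34.5 CPM, a ratio of 0.627 (0.567 to 0.693), with 63.2, 50.5 and 36.9 CPM in the reference libraries. Ifit1, which binds viral RNA, was at 19.8 and 12.4 CPM, with 21.2, 14.7 and 11.7 CPM in the reference libraries. For both genes the depleted libraries were the lowest, and the same held for Ifit3 (25.5 and 14.9 CPM) and the feedback protease gene Usp18 (25.6 and 16.6 CPM). Irf7, a transcription factor of the response, was at 78.1 and 60.0 CPM, within 1.5-fold. Ifit3, Ifit1 and Isg15 lead 1 small cluster of this class, whose size is therefore not used. In conventional CD4 T cells the median of the list was -0.02, and the difference between classes was not tested.

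Of 10 cytotoxic genes in CD8 T-like cells 4 were lower and none higher. The memory cluster was a smaller part of the class in the depleted library, 14.1% (12.98 to 15.3) against 17.8% (16.1 to 19.7) in the intact one. The reference shares were 16.4%, 18.0% and 16.1%, so saline and depleted anti-CTLA-4 were close. The ratio of the anti-CTLA-4 pair was 0.895 (0.796 to 1.005). The cluster was named by a rule on its Ccl5 level over all libraries. Ccl5 itself was lower in the class, so the share is a description only. Memory or effector CD8 markers summed to 2603 CPM in intact and 2069 CPM in depleted cells of the class. Within that cluster 1 of the 10 cytotoxic genes was lower, Ifng. Ifng, the cytokine interferon gamma, was at 11.3 and 4.91 CPM, a ratio of 0.435 (0.340 to 0.556), with 14.5, 12.0 and 9.92 CPM in the reference libraries, so the depleted libraries were lowest. The chemokine gene Ccl4 was at 20.1 and 11.9 CPM, Klrk1, the receptor NKG2D, at 17.2 and 10.4 CPM and Ccl5 at 1021 and 655 CPM. The granule genes Nkg7 and Ctsw were level, at 641 and 608 CPM and 390.3 and 374 CPM. Within the memory cluster (320 and 515 cells) Ifng was at 46.1 and 25.4 CPM, with 63.1, 46.1 and 39.2 CPM in the reference libraries, while Ccl4, Klrk1 and Ccl5 had ratios of 0.803, 0.689 and 0.778. That cluster, in which 2.68% of 6797 genes were higher and 0.75% lower, is led by Samd3, Gzmm and Ccl5. The genes above 1 ranked first in the whole class, by the interval bound nearest 1, were Farp2, Insyn2b, Dock2, Zfp992, Rnf157 and Bcas3. Dock2, an activator of the migration GTPase Rac, was at 382 and 552 CPM, a ratio of 1.45 (1.40 to 1.49) that is within 1.5-fold, with 421, 477 and 522 CPM in the reference libraries, so both depleted libraries were highest. The lower genes ranked first were Map3k8, Camk2b, Hspa1a, Socs3, Gpr15 and Gadd45g. Map3k8, a kinase upstream of ERK, was at 38.7 and 19.0 CPM, with 19.8, 27.4 and 26.3 CPM in the reference libraries, and the intact isotype library was highest. The direction turned in the anti-CTLA-4 pair for Camk2b (1.01) and Hspa1a (1.16), and against saline for Gadd45g (1.03). For these 3 genes and Socs3 the intact isotype library was the highest of the 5. Doublets were marked in 1.12% of intact and 9.09% of depleted CD8 T-like cells. The class made up 45.3% (43.7 to 46.8) of intact and 42.9% (41.8 to 43.9) of depleted T cells.

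**Figure D5:**
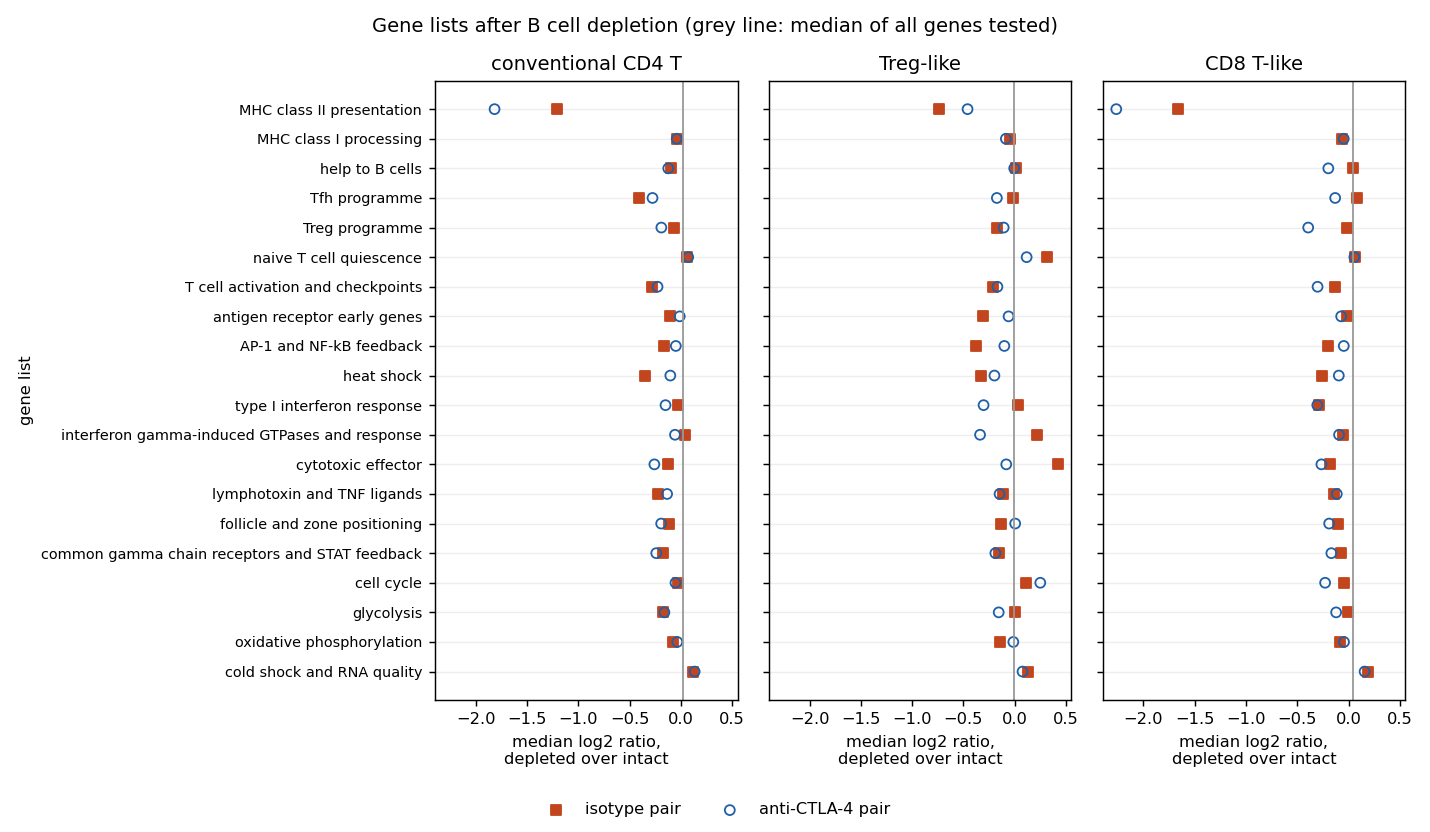
Median log2 ratio (x axis) of 20 gene lists (y axis) in 3 T cell classes, depleted over intact; squares are the isotype pair, circles the anti-CTLA-4 pair, and the grey line the median of all genes tested in the isotype pair. The follicular helper list (Tfh programme) lies at -0.41 and -0.28 in conventional CD4 T cells and the type I interferon list at -0.29 and -0.31 in CD8 T-like cells.

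Among the rarer cells, innate lymphoid-like and plasmacytoid dendritic-like cells took a smaller share after depletion. Innate lymphoid-like cells, a source of tissue cytokines, were 1.09% (0.802 to 1.46) of intact (46 cells) and 0.487% (0.353 to 0.655) of depleted cells without Cd79a (43 cells). The reference libraries gave 0.986%, 0.871% and 0.429%, so both depleted libraries lay below the 3 with B cells. Doublets were marked in 17.4% of intact and 4.65% of depleted innate lymphoid-like cells, and in 20%, 23.4% and 0% in the reference libraries. The part of doublets in this difference was not tested. Plasmacytoid dendritic-like cells, known as producers of type I interferon, were 0.642% (27 cells) and 0.317% (28 cells), a ratio of 0.494 (0.291 to 0.837). Their reference shares were 0.548%, 0.611% and 0.248%, again without overlap. Ly6d and Iglc3, among the leading genes of that cluster, were also lower in depleted T cells. Clusters left unnamed held 4.12% (T cells) and 1.31% (other cells) of the intact and 5.41% and 0.283% of the depleted cells. The unnamed other cells had Ebf1, Bank1 and H2-Ab1 among their leading genes. Of 10 B cell markers 9 were found in at least 5% of them, and of 8 conventional dendritic cell markers 7. B lineage cells without a Cd79a UMI can thus be among them. NK-like cells were 1.36% and 0.940%, and migratory dendritic-like cells 1.26% and 1.20%. A Cd79a UMI removed 11.6% of intact and 0.718% of depleted cells with at least 3 CD3 UMIs, so the denominators were not filtered alike.

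NK-like cells (57 intact, 83 depleted) had 49 of 1500 genes higher (3.27%) and 61 lower (4.07%). The killing genes Gzmb (granzyme B) and Prf1 (perforin) were at 364 and 129 CPM and at 302 and 196 CPM, the chemokine gene Ccl4 at 1187 and 519 CPM and granzyme A, Gzma, at 3578 and 3026 CPM. Gzmb was at 703, 374 and 332 CPM in the reference libraries and Ccl4 at 1722, 921 and 438 CPM, so for both the depleted libraries were lowest. For Gzmb, depleted anti-CTLA-4 lay close to intact anti-CTLA-4 and intact isotype, and within 1.5-fold of both. The early response genes Jun and Nr4a1 were at 837 and 337 CPM and at 1187 and 542 CPM, but the ratio of Nr4a1 in the anti-CTLA-4 pair was 1.09. Hspa1b was at 1349 and 330.1 CPM, with 479, 527 and 481 CPM in the reference libraries, and the intact isotype library alone was high.

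Migratory dendritic-like cells (53 and 106), which carry antigen from tissue to node, had 200 of 2374 genes higher (8.42%) and 102 lower (4.3%). Of 9 class II presentation genes 3 were lower, with a median log2 ratio of -0.49 here and -0.31 in the anti-CTLA-4 pair. H2-Ab1 was at 4641 and 3074 CPM, a ratio of 0.662 (0.628 to 0.699), with 4648, 3925 and 3507 CPM in the reference libraries. H2-DMb2 was at 429 and 248 CPM, with 295, 406 and 234 CPM, and H2-Oa at 289 and 156 CPM, with 203, 239.8 and 155 CPM. For all 3 the depleted libraries were lowest. T cell transcripts were higher in the same cells: T cell markers summed to 309 and 507 CPM, with 244, 276 and 463 CPM in the reference libraries, and the receptor subunit gene Cd3d was at 60.7 and 121 CPM. Without cells that held a CD3 UMI, a setting chosen after seeing the data, H2-Ab1, H2-DMb2 and H2-Oa had ratios of 0.632, 0.512 and 0.433, still lower. The other chains were within 1.5-fold: H2-Aa was at 7004 and 5831 CPM, H2-Eb1 at 5983 and 4290.3 CPM and Cd74 at 17744 and 12502 CPM. The maturation genes Fscn1 and Ccl22 were at 2568 and 2195 CPM and 646 and 715 CPM, and Ccr7, which guides these cells to the node, at 1168 and 1703 CPM.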

How the data were processed

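Gene expression was measured in 5 lymph node libraries, 1 per group. The deposited UMI count matrices came from Cell Ranger, version 7.0.1 in the file headers, and the submitters' processing notes name mm10 and bcl2fastq 2.20.0. From the receptor contig table deposited for the intact isotype group, which holds read and UMI counts, barcodes alone were taken. Barcodes with at least 500 genes, at most 10% mitochondrial UMIs and no Cd79a UMI were clustered over all 5 libraries with scanpy 1.11.5 and leidenalg 0.10.2 (2000 variable genes, 30 components, 15 neighbours, resolution 1). Classes were named from marker genes, with thresholds set after the clusters were seen. Doublets were marked by simulation, as a number set by the barcodes of each library before the Cd79a filter, and kept. UMIs were summed per class and library and scaled to CPM. Intervals are exact Poisson (CPM), Clopper-Pearson (shares) or conditional binomial (ratios), at 95%. Genes with at least 100 UMIs in a pair were counted past 1.5-fold, after subtraction of free B cell RNA estimated from 14 B cell genes. Scripts were tested on simulated counts. The simulated T cells made none of the 14 B cell genes themselves, so that test cannot show an overstated share of free RNA. Members and gene lists were chosen with earlier results of these data known. Genes were named by rule: in the 3 main T cell classes the 6 highest and 6 lowest by the interval bound nearest 1 (3 and 3 in other classes with at least 50 cells), up to 4 counted genes per list, and 10 genes past the fold in both pairs among all T cells. Ribosomal and mitochondrial genes, segments of antigen receptors, unnamed models, genes with over 10% predicted free RNA and genes with over 20% of UMIs in 1 cell were left out of the ranking. Further list members named in the text were chosen after their values were seen. Alternatives were saline or intact anti-CTLA-4 as the intact side, the anti-CTLA-4 pair, other size factors, UMI minimums, stricter or looser B cell filters, doublet removal, marker UMI classes and other free RNA estimates.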

Additional observations from a re-analysis of the deposited data

Results flagged for a closer look

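Both genes here had opposite directions in the isotype and the anti-CTLA-4 pair, and the difference was not tested. Neb, which encodes a sarcomere protein, had a depleted over intact ratio of 0.367 in conventional CD4 T cells of the isotype pair (6.75 and 2.48 CPM) and 1.69 in the anti-CTLA-4 pair (3.67 and 6.21 CPM). Hist1h1e, a linker histone gene, had ratios of 0.260 (210.5 and 54.7 CPM) and 1.99 (97.8 and 195 CPM) in NK-like cells. Without the cell with most Hist1h1e UMIs in each library the ratio in the anti-CTLA-4 pair was 1.18.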

How the results depend on the processing

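Ratios past 1.5-fold were checked for named genes and list genes, each gene counted once per class. Of 144 such ratios, 142 stayed past 1.5-fold in the same direction with median-ratio size factors. Against saline 81 did, against intact anti-CTLA-4 72 and in the anti-CTLA-4 pair 55. With Cd79a allowed at 1 UMI 104 of 108 did, without marked doublets 92 of 108, and with marker UMI classes 73 of 106. Leaving out cells of the other coreceptor and taking free RNA from 13 genes were chosen after seeing the data. With at least 30 UMIs, 434 genes were higher and 312 lower in conventional CD4 T cells (14 lower before subtraction only), 492 and 324 in Treg-like cells, and 507 and 202 in CD8 T-like cells. With no filter, 1401 genes were higher and 1051 lower in conventional CD4 T cells (66 lower before subtraction only), 1360 and 1047 in Treg-like cells, and 1505 and 846 in CD8 T-like cells. Against intact anti-CTLA-4, 71 genes were higher in conventional CD4 T cells, 53 in Treg-like cells and 83 in CD8 T-like cells. Against saline, 91 genes were higher and 175 lower in Treg-like cells, and the anti-CTLA-4 pair gave 83 higher there. Classes from marker UMIs gave 273 higher genes in Treg-like and 221 in CD8 T-like cells, and a ratio of the Treg-like share of 1.02. The genes lower before subtraction only in conventional CD4 T cells numbered 1 with marker classes, 7 with free RNA from 13 genes and 1 without cells of the other coreceptor. The ratio of the CD8 T-like share was 1.01 against intact anti-CTLA-4 and 1.02 in the anti-CTLA-4 pair. Free B cell RNA in intact T cells was 0.393% from 13 genes, 0.377% from Igkc (0.308% without its highest cell) and 0.729% in cells without UMIs of 4 B cell genes. Ratios reversed in the anti-CTLA-4 pair for Tarbp1 (0.996), Cpt1a (0.990), Neb (1.69), Hspa1a (1.08), Egr2 (1.18), Hspa1b (1.14), Hspb1 (1.56), Tgtp1 (0.946) and Cxcl10 (1.24) in conventional CD4 T cells. In Treg-like cells they reversed for Dapl1 (0.941), Ptpn12 (0.746), Dleu2 (0.812), S100a6 (1.03), Hspa1b (1.06), Camk2b (1.33), Hspa1a (1.09), Cxcl10 (0.337) and Cxcr3 (1.07). In CD8 T-like cells they reversed for Camk2b (1.01), Hspa1a (1.16), Cd40lg (0.803) and Hspa1b (1.23). In NK-like cells they reversed for S100a6 (0.953), Hist1h1e (1.99) and Nr4a1 (1.09). In migratory dendritic-like cells they reversed for Kdm7a (0.880) and Tnfsf9 (0.461). Ratios reversed against saline for Neb (1.08), Igkc (1.93), Socs3 (1.02), Cxcl10 (1.15) and Ccl4 (0.691) in conventional CD4 T cells. In Treg-like cells they reversed for Socs3 (1.13) and Gadd45g (1.11). In CD8 T-like cells they reversed for Gadd45g (1.03). In all T cells they reversed for Jchain (1.26). Ratios reversed against intact anti-CTLA-4 for Igkc (1.42) in conventional CD4 T cells. In Treg-like cells they reversed for Cxcl10 (0.556). In all T cells they reversed for Jchain (3.73). Ratios reversed without marked doublets for Gzmk (1.06), Il2ra (1.16) and Ccl5 (2.44) in conventional CD4 T cells. In Treg-like cells they reversed for Dapl1 (0.805). In CD8 T-like cells they reversed for Cd40lg (0.890). Ratios reversed with marker UMI classes for Dapl1 (0.656) and Gadd45g (1.08) in Treg-like cells. In conventional CD4 T cells they reversed for H2-Aa (1.18), Il2ra (1.28) and Ccl5 (2.33). Ratios reversed without cells of the other coreceptor for Gzmk (1.85) and Ccl5 (2.62) in conventional CD4 T cells. In activated CD4 T cells they reversed for Ccl5 (2.15). The causes of these changes were not tested. No paired analysis was possible because each group is 1 library and the labels give no replicate numbers. Leaving out a replicate was not possible for the same reason. Depth limits the rare classes: NK-like and migratory dendritic-like cells gave few genes with 100 UMIs.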

Other observations

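Over all T cells, several low genes lay past 1.5-fold in the same direction in both pairs. Mss51 was at 2.07 CPM in intact and 4.17 CPM in depleted T cells, with 2.72, 2.82 and 4.29 CPM in saline, intact anti-CTLA-4 and depleted anti-CTLA-4 T cells. Eif4ebp3, a repressor of translation initiation, was at 2.86 and 4.56 CPM, with 2.68, 2.92 and 4.41 CPM in these libraries, and the potassium channel gene Kcnj13 at 1.35 and 2.17 CPM, with 1.38, 1.27 and 2.21 CPM. For these 3 genes both depleted libraries were highest. Xlr3b, an X-linked lymphocyte-regulated gene, was at 6.16 and 3.09 CPM, with 3.46, 4.399 and 2.01 CPM, and both depleted libraries were lowest. In CD8 T-like cells the migration receptor gene S1pr2 was at 3.54 and 1.70 CPM, with 2.61, 2.91 and 1.52 CPM, and the depleted libraries were lowest again. These genes are low, and their values rest on few UMIs.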
